A study of Mus musculus with 16 samples.

Results

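The matrix metalloproteinases, the ADAMTS and ADAMTS-like proteins and their tissue inhibitors were followed here through their messenger RNA. The genes were chosen by name alone: every mouse gene called Mmp, Adamts or Adamtsl followed by a number, and Timp1 to Timp4. This gave 51 of the 24485 gene IDs measured, namely 23 Mmp, 19 Adamts, 5 Adamtsl and 4 Timp genes. Of these, 31 reached 1 FPKM (fragments counted per transcript length and sequencing depth) in at least 3 of 16 libraries and are described by their values, and 20 did not. Just inside that limit were Adamts3 and Mmp17, with 3 such libraries each. Just outside it were Mmp13 and Adamts15, each with 1 library, at 1.11 and 1.01 FPKM.

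RNA came from immortalized mouse embryonic fibroblasts of 2 lines. Both carry the transactivator allele R26M2rtTA/+, which responds to doxycycline, and TetOcre, a Cre recombinase that it switches on. The line called exp is Sdhcfl/fl, with 2 floxed copies of Sdhc, a subunit of succinate dehydrogenase, and the line called ctl is Sdhcfl/wt, with 1. All cells, the controls included, grew in low-glucose medium with serum and were given doxycycline at 1 µg/mL; day 0 is read here as the start of that treatment, which the labels do not spell out. Each line gave 1 library on each of the days 0, 5, 9, 12 and, last, 20, and 3 biological replicates at day 16. Since each genotype is represented by a single line, the effects of line and genotype cannot be told apart, and p-values measure only the spread between libraries of these lines.

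Matrix metalloproteinases are zinc enzymes, made as inactive proenzymes, that cut collagens and other proteins of the extracellular matrix. ADAMTS enzymes are secreted relatives with thrombospondin repeats that trim procollagens or cut large proteoglycans such as aggrecan and versican, and ADAMTS-like proteins share their ancillary domains but lack the protease. The 4 TIMP proteins bind and block matrix metalloproteinases. TIMP2 also takes part in activating proMMP2 at the cell surface together with MMP14, which is anchored in the membrane. Fibroblasts make many of these proteins in connective tissue, while some of the metalloproteinases come mainly from leukocytes or epithelia.

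The libraries held 18121518 to 42486426 reads in genes. Sdhc went from 87.8 FPKM at day 0 to 32.0 ± 5.23 at day 16 in exp, and from 90.5 to 49.4 ± 1.66 in ctl (SD, n = 3). Day 16 replicates 2 and 3 stood apart in both lines. Across genes they correlated with each other at r = 0.995 in exp and 0.997 in ctl, but with the other 6 libraries of their line only at 0.947 to 0.964 and 0.975 to 0.983. Replicate 1 correlated with day 20 at 0.993 and 0.996. All 10 fibroblast markers reached 1 FPKM in at least 1 library, with summed levels of 3027 to 4454 FPKM in exp and 2964 to 3434 in ctl. Single ones differed: 5 of the 10 were called higher and 2 lower in exp over all days, from 3.34 log2 for Dcn and 2.68 for Col1a2 to -1.31 for Pdgfra. In that fit, which also gave the marker calls that follow, 19.2% of all genes were called higher and 16.7% lower. Of 7 macrophage markers 6, and of 4 endothelial markers all 4, stayed below 1 FPKM in every library. The 9 mesothelial and simple-epithelial markers differed between the lines: their summed level was 91.1 to 1155 FPKM in exp and 97.4 to 127 in ctl, 7 of the 9 were below 1 FPKM in every ctl library, and 8 of the 9 were called higher in exp over all days. The exception was Msln, which made up most of the ctl sum (84.8 to 121 FPKM, beside 15.3 to 131 in exp) and differed by -1.02 log2 (adjusted p = 0.0606). The 4 surface epithelial markers summed to 6.80 to 108 FPKM in exp and 1.21 to 1.92 in ctl. Most of the exp sum was Krt14, at 5.71 to 107 FPKM, beside 0.0143 to 0.217 in ctl. Cdh1 had 0.713 to 1.54 FPKM in exp and 1.08 to 1.55 in ctl, and Epcam and Krt5 stayed below 1 FPKM in every library. The 4 smooth muscle markers summed to 188 to 674 FPKM in exp and 172 to 368 in ctl, with 2 of the 3 tested called higher in exp. The 6 osteoblast and cartilage markers summed to 10.1 to 21.6 and 8.38 to 13.1 FPKM, with 2 of the 2 tested over all days (Col2a1 and Runx2) called higher in exp. The part of such cells in the results below was not tested. In bulk RNA, fewer cells of a type and less RNA per cell cannot be told apart.

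The lines differed in many of the protease genes, in both directions. Over all days, by limma on log2(FPKM + 1) with day as a factor, 6 of the 23 members tested were higher in exp (19.2% of all 12559 genes tested were) and 6 were lower (16.7%). The higher ones were Adamts9, Adamtsl3, Adamts5, Mmp16, Adamts1 and Adamts4. The lower ones were Adamts2, Mmp2, Timp2, Mmp28, Adamtsl5 and Adamtsl4. The median difference of the tested members was 0.03 log2, beside 0.01 for all genes tested. The 12 members also called when day 0 was left out had the same sign at day 0, where each line has a single library and no test. The matching share over all called genes was not computed, so this count says nothing particular to the members. Without day 16 replicates 2 and 3, 27 members had the mean of 1 FPKM needed for testing. Of these 27, 16 were called, where 36.7% of all genes were. These 16 included the same 12.

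**Figure D1:**
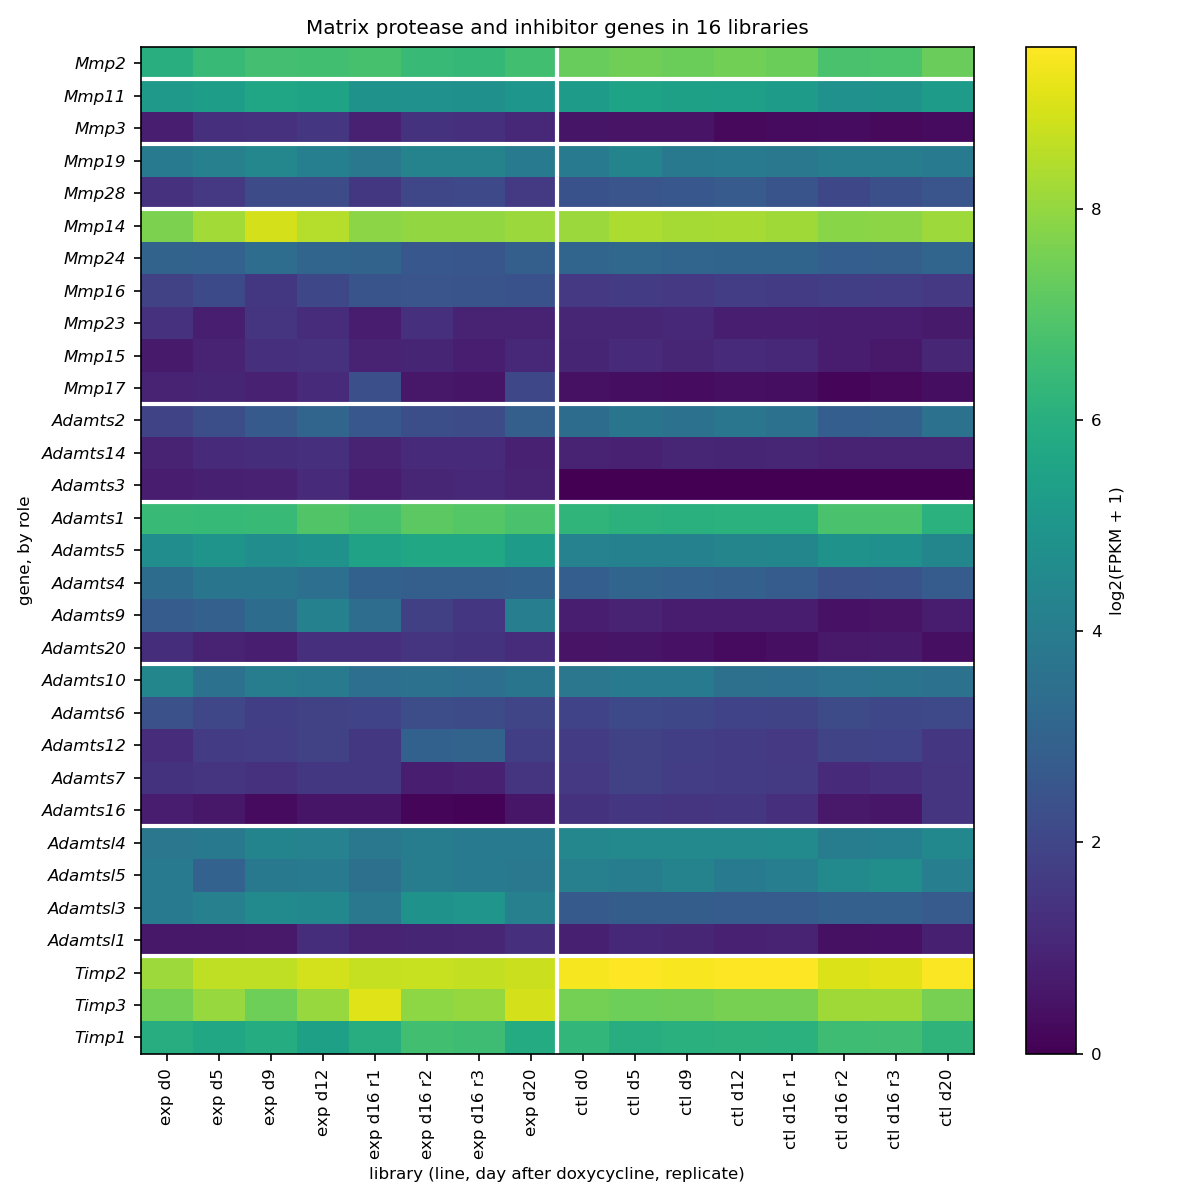
Heat map of log2(FPKM + 1) for the 31 members at 1 FPKM or more in at least 3 libraries, with 1 row per gene ordered by role and 1 column per library (line, day, replicate). The brightest rows are Mmp14, Mmp2, Timp2, Timp3, Timp1 and Adamts1, and Adamts3 is dark in all 8 ctl libraries.

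**Figure D2:**
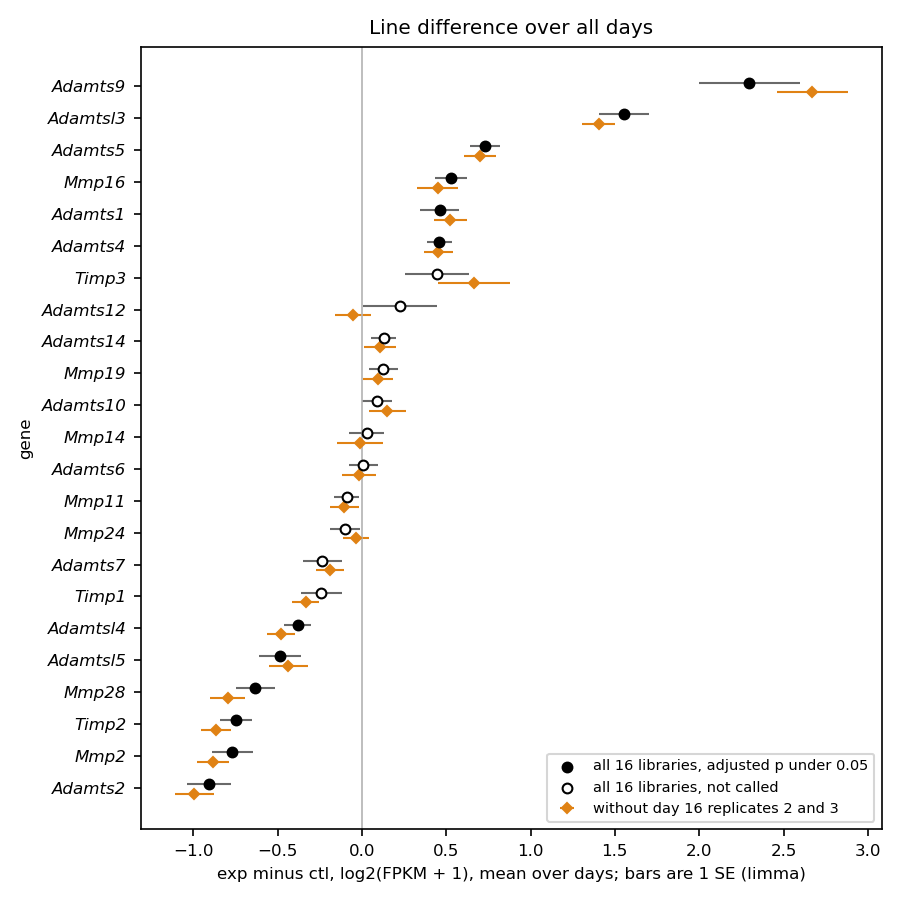
Line difference over all days (exp minus ctl on log2(FPKM + 1)) for the 23 members tested. Circles use all 16 libraries, filled where the adjusted p was under 0.05; diamonds leave out day 16 replicates 2 and 3; bars are 1 SE. The differences run from -0.91 for Adamts2 to 2.30 for Adamts9.

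At day 16 alone, with 3 libraries per line, 4 of 24 members tested were higher in exp (3.1% of 12533 genes were) and 0 were lower (3.01%). These were Mmp16, Adamts5, Adamts20 and Adamtsl3. Adamts20 met the filter of a mean of 1 FPKM through exp (1.58 FPKM, beside 0.494 in ctl). Members under the filter, and so not tested, included Adamts15 and Adamts16, lower in exp, and Adamts3 and Mmp3, higher in exp. With no filter 5 of 47 members were called, 5 higher and 0 lower (3.83% of all genes were called). By the filtered limma fit 10 of the 24 had an unadjusted p under 0.05, as had 2822 of all 12533 genes. The median difference was 0.03 for the members and -0.01 for all genes. Leaving out exp replicate 2, exp replicate 3, ctl replicate 2 or ctl replicate 3 left 1 call, Mmp16. Over all genes these fits called 237, 242, 218 and 197, beside 765 with all 6 libraries. Adamts20 was short of the threshold without ctl replicate 2 or ctl replicate 3. Without any one of the exp replicates its mean fell under the filter, so it was not tested. With the replicate number as a block, 7 members passed (8.16% of all genes), the added ones being Adamts2, Adamtsl5 (-0.62, adjusted p = 0.0301) and Mmp2, all lower in exp. Within replicates 2 and 3 alone 17 members passed, where 34.7% of all genes did.

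A run of 10 Mmp genes lies side by side on chromosome 9, between 7272514 and 7699585 in mm9. This stretch holds the classical collagenases Mmp13, Mmp8, Mmp1a and Mmp1b, the stromelysins Mmp3 and Mmp10, and Mmp7, Mmp12, Mmp20 and Mmp27. In these fibroblasts the cluster was nearly silent. Only Mmp3 and Mmp13 reached 1 FPKM in any library, the other 8 never rose above 0.1, and Mmp7, Mmp12 and Mmp20 were listed at 0 throughout. Members of this cluster are known as targets of the transcription factor AP-1, so its motif TGANTCA was searched on both strands in the RefSeq promoter windows of 300 bases (250 before the start and 50 after it, GRCm38.p6). It was found in 8 of the 10 cluster genes, all but Mmp8 and Mmp27. Of all 36 members with a window, those 8 were the ones that held it, beside 8.97% of all 27025 genes with a window (7.81% of all 32851 windows). The stretches around the motif (capitals) are shown for the 2 genes that reached 1 FPKM and for 3 that stayed below 0.1, so that the letters can be compared; each reads 5′ to 3′ on the gene's strand. They lie at chr9:7445764-7445794 (Mmp3), chr9:7272467-7272497 (Mmp13), chr9:7502267-7502297 (Mmp10), chr9:7464056-7464086 (Mmp1a) and chr9:7347318-7347348 (Mmp12), all on the plus strand of GRCm38.p6.
Mmp3: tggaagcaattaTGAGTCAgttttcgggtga
Mmp13: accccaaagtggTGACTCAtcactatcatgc
Mmp10: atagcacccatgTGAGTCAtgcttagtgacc
Mmp1a: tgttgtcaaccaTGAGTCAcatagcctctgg
Mmp12: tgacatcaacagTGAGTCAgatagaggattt
The motif begins 46 bases before the annotated start in Mmp3, 35 in Mmp13, 63 in Mmp10, 73 in Mmp1a and 44 in Mmp12. A match of letters is a description and not evidence of binding. Both genes that reached 1 FPKM and 6 of the other 8 hold it.

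Mmp3, which makes stromelysin 1 and cuts proteoglycans and several proenzymes, was low but higher in exp. Its level was 0.725, 1.44, 1.57 and 1.85 FPKM in exp at days 0, 5, 9 and 12, then 0.856, 1.64 and 1.41 at day 16 and 1.11 at day 20. The ctl line had 0.451, 0.423, 0.435 and 0.198, then 0.207, 0.248 and 0.178, and 0.211. The lines did not overlap. The deposited values correspond to 537 reads in all 8 exp libraries and 134 in ctl, a ratio at equal depth of 4.72 (95% interval 3.90 to 5.75, exact, counting error only). Its mean was under the 1 FPKM filter; with no filter the all-days difference was 0.83 ± 0.10 log2 (limma adjusted p = 0.000171; 27.6% of all genes were called in that fit), and at day 16 it was 0.91 ± 0.14 (0.0343; 3.83%).

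Mmp13, the main interstitial collagenase of the mouse, was detected almost only in day 16 replicates 2 and 3 of exp. The reads at days 0, 5, 9 and 12 were 1, 2, 1 and 0 in exp, day 16 replicate 1 had 5 and day 20 had 11. Replicates 2 and 3 had 117 and 90, which is 1.11 and 0.805 FPKM. The ctl libraries had 0 to 7. Of the 6 osteoblast and cartilage markers, Col2a1 and Acan were high in the same 2 exp libraries. Col2a1 had 6.82 and 6.30 FPKM there, beside 0.828 to 1.76 in the other 6, and Acan 1.33 and 1.48, beside 0.0273 to 0.111. Runx2 had 12.6 and 13.0, beside 7.97 to 12.1. Sp7 (0.234 and 0.408, beside 0.340 to 0.467) and Bglap (0.372 and 0.399, beside 0.161 to 1.15) were not raised there. Ibsp was at most 0.0171 FPKM. In ctl, Acan was also highest in replicates 2 and 3 (2.70 and 2.22 FPKM) while Col2a1 stayed at 0.130 to 0.305. The part of cells with these markers in the Mmp13 result was not tested. With no filter on low values the difference over all days was 0.26 ± 0.14 log2 and did not pass (limma adjusted p = 0.21).

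Nearly all metalloproteinase mRNA came from 3 genes: Mmp14, Mmp2 and Mmp11 held 90.8 to 93.8% of summed Mmp FPKM in exp and 92.6 to 94.2% in ctl. Mmp14, a membrane-anchored collagenase that activates proMMP2, was the most abundant in every library. In exp its level was 198 FPKM at day 0, then 296, 484 and 355 at days 5, 9 and 12, and 275 at day 20. In ctl the matching levels were 273, 325, 304, 309 and 282. At day 16 the means were 247 ± 9.45 and 249.7 ± 35.8 (SD, n = 3). The lines overlapped, exp was higher in 4 of 8 pairs of libraries of the same day and replicate, and the all-days difference was 0.03 ± 0.10 log2 (limma adjusted p = 0.859). The highest value, exp day 9, rests on 1 library.

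Mmp2, gelatinase A, which cuts denatured and basement membrane collagen, was lower in exp in all 8 pairs. It lies on chromosome 8 from 95351227 to 95377316. Its level in exp was 61.2 FPKM at day 0, then 86.1, 102 and 98.6 at days 5, 9 and 12, 106, 85.8 and 79.6 at day 16 and 100.5 at day 20. In ctl it was 157, 177, 168 and 178, then 169, 110.3 and 113, and 162. The lines did not overlap, although ctl day 16 replicates 2 and 3 came close to exp. The all-days difference was -0.77 ± 0.12 log2 (limma adjusted p = 0.000462). At day 16 it was -0.51 ± 0.20 and did not pass (adjusted p = 0.201), but passed with the replicate block (adjusted p = 0.0368); for replicate 1 alone it was -0.67, for the other 2 it was -0.43. Mmp2 made up 15.1 to 26.2% of summed Mmp FPKM in exp and 28.0 to 32.0% in ctl, and these ranges did not overlap.

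Timp2, the inhibitor that also bridges MMP14 and proMMP2, was lower in exp together with Mmp2. It lies on chromosome 11 from 118162383 to 118217054, minus strand. Its level was 278 FPKM in exp at day 0, 392, 393 and 469 at days 5, 9 and 12, 409.9, 421 and 403 at day 16 and 433 at day 20. In ctl it was 681, 726, 686 and 739, then 721, 526 and 553, and 721. The lines did not overlap, and the lowest ctl values were again replicates 2 and 3. The all-days difference was -0.74 ± 0.09 log2 (limma adjusted p = 9.02e-05). At day 16 it was -0.53 ± 0.13, short of the threshold (adjusted p = 0.0692). The ratio of Timp2 to Mmp2 FPKM overlapped between the lines, at 3.86 to 5.07 in exp and 4.07 to 4.91 in ctl. The ratio of Mmp14 to Mmp2 did not, at 2.23 to 4.75 in exp and 1.72 to 2.06 in ctl.

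**Figure D3:**
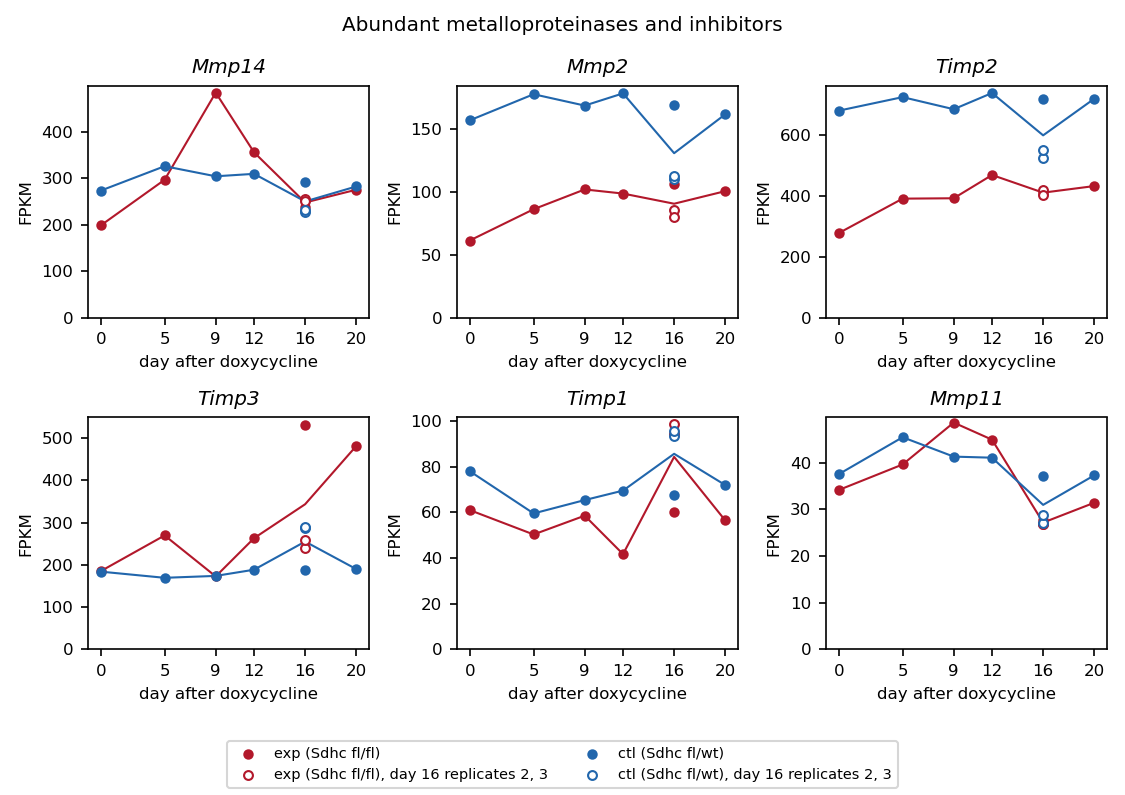
FPKM by day after doxycycline for Mmp14, Mmp2, Timp2, Timp3, Timp1 and Mmp11, with exp in red, ctl in blue, 1 point per library and lines through the means. Open points are day 16 replicates 2 and 3. Mmp2 and Timp2 of exp lie below ctl on every day, and exp Timp3 is highest in day 16 replicate 1 (531) and day 20 (482).

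Mmp11, stromelysin 3, and the secreted Mmp19 did not pass the test. Mmp11 had 26.8 to 48.7 FPKM in exp and 27.1 to 45.5 in ctl (all-days -0.09 ± 0.07 log2, limma adjusted p = 0.368). Mmp19 had 13.1 to 20.4 in exp and 13.2 to 18.6 in ctl (0.13 ± 0.09, adjusted p = 0.273), and its exons share 789 bases with 1110012D08Rik. Mmp28, epilysin, was lower in exp in 8 of 8 pairs, from 1.55 against 4.26 FPKM at day 0. Its range was 1.55 to 3.60 FPKM in exp (median of 8 libraries 2.59) and 3.24 to 5.62 in ctl (4.65). The lines overlapped only through ctl day 16 replicate 2, at 3.24. The difference was -0.63 ± 0.12 log2 (adjusted p = 0.00141), and -0.14 in replicates 2 and 3. Its exons share 465 bases with those of 1700020L24Rik, which had 1.83 to 6.31 FPKM.

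Among the membrane-bound enzymes Mmp16, a close relative of Mmp14, was higher in exp. It lies on chromosome 4 from 17780040 to 18046292. At days 0, 5, 9 and 12 it had 2.58, 3.43, 1.93 and 3.19 FPKM in exp, then 4.63, 4.76 and 4.63 at day 16 and 4.28 at day 20. In ctl it had 1.99, 2.23, 1.97 and 2.28, then 2.14, 2.40 and 2.28, and 2.02. The lines were apart at day 16 and day 20 and crossed at day 9. The day 16 means of 4.67 ± 0.0731 and 2.27 ± 0.129 FPKM (SD, n = 3) differed by 0.79 ± 0.08 log2 (limma adjusted p = 0.00455), made up of 0.84 for replicate 1 and 0.77 for replicates 2 and 3. This call passed in all 15 alternative settings that tested it. Over all days the difference was 0.53 ± 0.10 (adjusted p = 0.00133), and without the 6 day 16 libraries it was short of the threshold (adjusted p = 0.0555).

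Mmp17, which sits in the membrane by a lipid anchor, was low. Within exp it was highest in the same 2 libraries as the mesothelial and simple-epithelial markers, but not within ctl. Its level in exp was 0.863, 0.998, 0.812 and 1.23 FPKM at days 0, 5, 9 and 12, then 4.0 in day 16 replicate 1, 0.534 and 0.443 in replicates 2 and 3, and 3.21 at day 20. The ctl libraries had 0.131 to 0.335 and did not overlap with exp. The summed mesothelial and simple-epithelial markers of the same exp libraries were 330, 329, 161 and 317 FPKM, then 1155, 91.1 and 103, and 1023. All 9 markers were higher in exp day 16 replicate 1 and in day 20 than in replicates 2 and 3. So were the fibroblast markers Dcn (118 and 143 FPKM, beside 24.2 and 21.3), Col3a1 (449 and 499, beside 220 and 215) and Col1a2. Pdgfrb, Thy1, Lum, Vim and Fn1 were lower there, and Col1a1 and Pdgfra were mixed. In ctl, day 16 replicates 2 and 3 had the highest marker sums (124 and 127 FPKM) and the lowest Mmp17 (0.131 and 0.176). With no filter on low values the all-days difference of Mmp17 was 0.85 ± 0.25 log2 (limma adjusted p = 0.0246), and without day 16 replicates 2 and 3 it was 1.01 ± 0.22 (0.00795). The part of cells with any of these markers in the result was not tested.

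The other membrane-bound enzymes, Mmp15, Mmp23 and Mmp24, overlapped between the lines. Mmp24 had 4.83 to 9.71 FPKM in exp and 6.13 to 8.09 in ctl (-0.10 ± 0.09 log2, limma adjusted p = 0.412). Its exons share 637 bases with BC029722, which was more abundant at 29.7 to 60.5 FPKM, so part of its reads may be ambiguous. Mmp15 had 0.616 to 1.55 and 0.553 to 1.20 FPKM, and Mmp23 0.701 to 1.79 and 0.603 to 1.15. With no filter neither passed (0.04 ± 0.08 and 0.23 ± 0.09 log2, adjusted p = 0.775 and 0.0853).

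The 3 procollagen N-propeptidases, which cut the amino-terminal propeptide from fibrillar procollagens, went in different directions. Adamts2, on chromosome 11 from 50415586 to 50621075, was lower in exp in 8 of 8 pairs. Its level was 2.92, 3.89, 5.53 and 7.52 FPKM in exp at days 0, 5, 9 and 12, then 5.07, 3.91 and 3.53, and 6.48 at day 20. In ctl it was 9.35, 12.0, 10.7 and 12.4, then 10.96, 6.24 and 6.56, and 11.01. On each day exp was the lower line, and the ranges over days overlapped only because ctl day 16 replicates 2 and 3 were low. The difference was -0.91 ± 0.13 log2 over all days (limma adjusted p = 0.000261). At day 16 it was -0.76 ± 0.22 (adjusted p = 0.114), and it passed there with the replicate block (0.0323).

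Adamts3 was present in exp and close to absent in ctl. It lies on chromosome 5 from 90102866 to 90312359, minus strand. Its level in exp was 0.648, 0.807, 0.831 and 1.27 FPKM at days 0, 5, 9 and 12, then 0.695, 1.06 and 1.12, and 0.910 at day 20. Every ctl library lay between 0.00614 and 0.0193. These values correspond to 99 to 358 reads per exp library, 1603 in all, against 2 to 6 per ctl library, 25 in all. At equal depth the ratio was 75.5 (95% interval 51.0 to 117, counting error only). The gap was there at day 0. With no filter on low values the all-days difference was 0.91 ± 0.06 log2 (limma adjusted p = 1.16e-06), and at day 16 it was 0.94 ± 0.09 (0.00869); the pseudocount of 1 FPKM compresses both. Adamts14 had 0.824 to 1.48 FPKM in exp and 0.833 to 1.03 in ctl and did not pass (0.13 ± 0.07, adjusted p = 0.189).

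**Figure D4:**
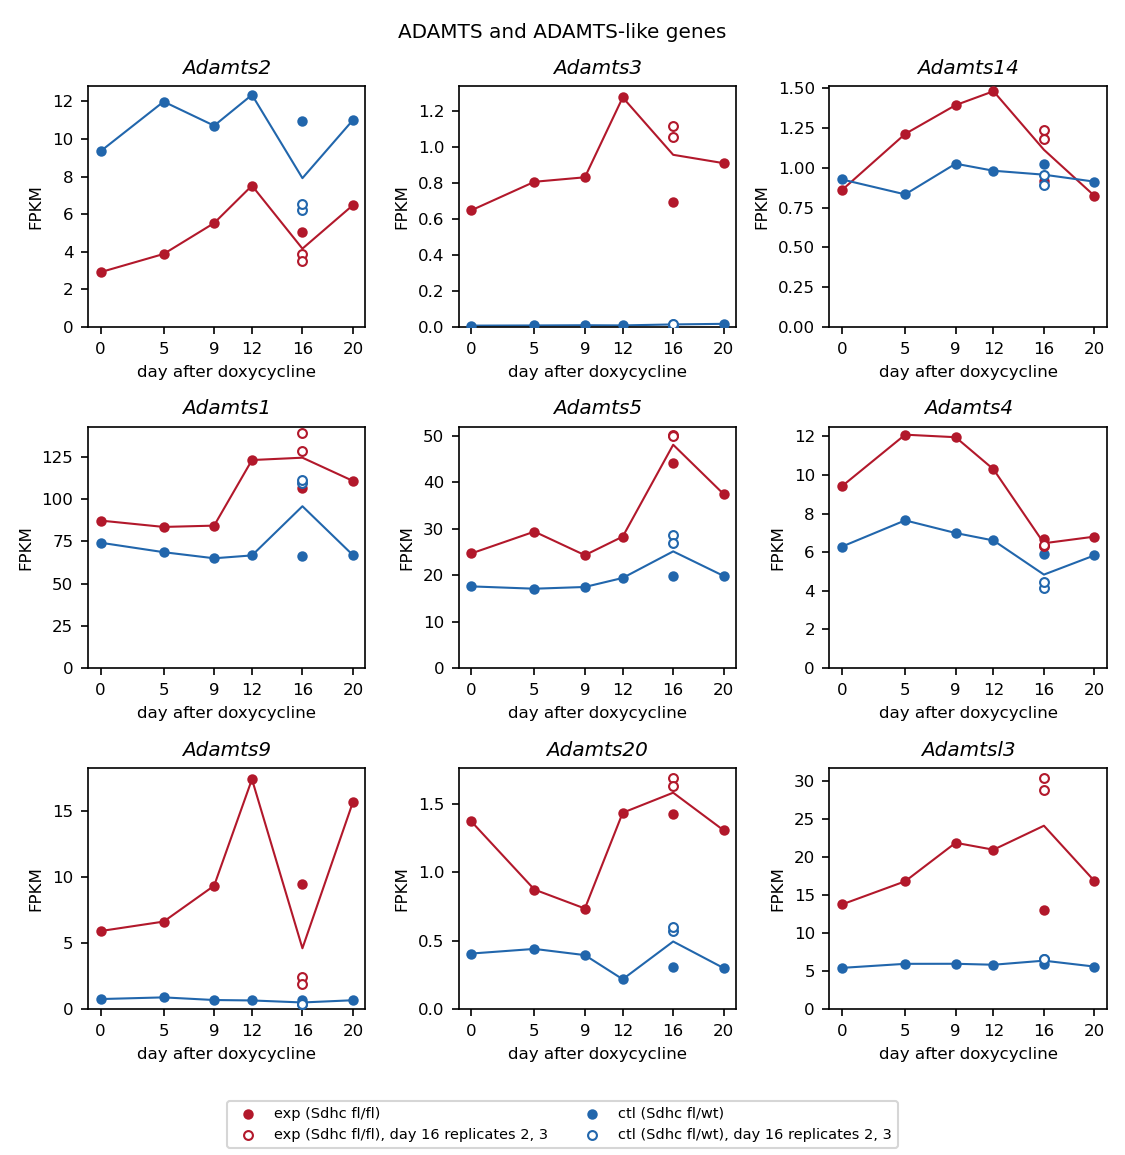
FPKM by day after doxycycline for Adamts2, Adamts3, Adamts14, Adamts1, Adamts5, Adamts4, Adamts9, Adamts20 and Adamtsl3, drawn as in the plot of abundant genes. Adamts2 is lower in exp on each day and Adamts3 is near 0 in ctl, while exp Adamts9 is at 9.51 in day 16 replicate 1 and at 2.46 and 1.87 in replicates 2 and 3.

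Of the 7 proteoglycan-cleaving enzymes, 4 passed the filter over all days and all 4 were higher in exp (19.2% of all genes were): Adamts1, Adamts4, Adamts5 and Adamts9, each in 8 of 8 pairs. Adamts9 met the filter through exp (mean 8.61 FPKM, beside 0.646 in ctl). Of those under the filter over all days, Adamts15 was lower in exp and Adamts20 higher. Adamts5, the main aggrecanase of mouse cartilage, lies on chromosome 16 from 85858415 to 85901370. Its level in exp was 24.7, 29.4, 24.3 and 28.3 FPKM at days 0, 5, 9 and 12, then 44.1, 50.2 and 49.8, and 37.4 at day 20. In ctl it was 17.6, 17.1, 17.5 and 19.4, then 19.8, 28.7 and 26.9, and 19.8. The ranges overlapped only through ctl day 16 replicates 2 and 3, which lay above the lowest exp values. The difference was 0.73 ± 0.09 log2 over all days (limma adjusted p = 6.8e-05) and 0.92 ± 0.15 at day 16 (0.0234). Adamts1, its neighbour on chromosome 16 (85794072 to 85803358), was the most abundant ADAMTS gene, with 83.5 to 139 FPKM in exp (median 108) and 64.9 to 111 in ctl (67.7). It differed by 0.46 ± 0.12 log2 over all days (adjusted p = 0.00962) and by 0.40 ± 0.22 at day 16 (0.352). Adamts4, the other classical aggrecanase, had 6.32 to 12.1 FPKM in exp and 4.14 to 7.65 in ctl. It differed by 0.46 ± 0.07 log2 over all days (0.000526), and by 0.37 ± 0.12 at day 16 (0.158).

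Adamts9, a versican-cleaving enzyme on chromosome 6 from 92722693 to 92893486, showed the largest difference of the 23 members tested. Its level in exp was 5.92, 6.64, 9.36 and 17.4 FPKM at days 0, 5, 9 and 12, then 9.51 in day 16 replicate 1, 2.46 and 1.87 in replicates 2 and 3, and 15.7 at day 20. The ctl line had 0.760, 0.888, 0.687 and 0.655, then 0.707, 0.398 and 0.400, and 0.670. The lines did not overlap. The difference was 2.30 ± 0.30 log2 over all days (limma adjusted p = 0.000129) and 2.67 ± 0.21 without day 16 replicates 2 and 3 (4.77e-05). At day 16 it was 1.65 ± 0.49 and did not pass (0.116), made up of 2.62 for replicate 1 and 1.17 for replicates 2 and 3. The marker sum was lowest in the same 2 exp libraries as Adamts9, but its highest values were in day 16 replicate 1 and day 20, whereas Adamts9 was highest at day 12; the markers' part in the result was not tested. Exons of A730049H05Rik and Gm15737 share 1381 and 424 bases with it.

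Adamts20, a relative of Adamts9, had 1.37, 0.873, 0.735 and 1.43 FPKM in exp at days 0, 5, 9 and 12, then 1.43, 1.69 and 1.63, and 1.31 at day 20. In ctl it had 0.406, 0.440, 0.394 and 0.218, then 0.310, 0.572 and 0.599, and 0.300. The lines did not overlap. At day 16 the difference was 0.79 ± 0.13 log2 (limma adjusted p = 0.0274), made up of 0.89 for replicate 1 and 0.75 for replicates 2 and 3. It was 0.71 ± 0.08 over all days with no filter (0.000126). Adamts15, another aggrecanase, went the other way: 8 reads in all exp libraries against 1032 in ctl, a ratio of 109.5 at equal depth (95% interval 55.4 to 254). Its ctl level was 0.757 to 1.01 FPKM in 6 libraries and 0.155 and 0.227 in day 16 replicates 2 and 3. With no filter the all-days difference was -0.73 ± 0.11 (0.000595). Adamts8 never passed 0.0375 FPKM.

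Of the other ADAMTS enzymes, 0 of the 4 tested over all days passed. Adamts10, which binds fibrillin microfibrils, had 10.1 to 19.9 FPKM in exp and 10.1 to 14.6 in ctl (0.09 ± 0.09 log2, limma adjusted p = 0.462), and Adamts6 had 2.42 to 4.18 and 2.74 to 3.68 (0.01 ± 0.09, 0.95). Adamts7, which cuts cartilage oligomeric matrix protein, was lower in exp in 8 of 8 pairs, at 0.758 to 1.96 against 1.20 to 2.69 FPKM. Its difference of -0.23 ± 0.12 did not pass (0.14), but passed with the replicate block (0.0278; 37.9% of all genes were called in that fit). Its exons share 122 bases with the more abundant Tbc1d2b (10.6 to 17.8 FPKM). Adamts12 overlapped between the lines on most days, at 1.29 to 2.61 FPKM in 6 exp libraries and 1.88 to 2.90 in ctl. In exp day 16 replicates 2 and 3 it had 6.75 and 7.20 FPKM. Col2a1 (6.82 and 6.30 FPKM) and Acan (1.33 and 1.48) were also high in those 2 libraries, but Sp7 and Bglap of the same marker list were not. In ctl day 16 replicates 2 and 3 Acan had 2.70 and 2.22 FPKM, while Adamts12 had 2.90 and 2.74. The part of cells with these markers was not tested. For Adamts12 the difference in replicates 2 and 3 was 1.06 log2, beside -0.04 for replicate 1 and 0.23 ± 0.22 over all days (0.46). Adamts16 was lower in exp in 8 of 8 pairs, at 0.0650 to 0.653 against 0.498 to 1.85 FPKM. Its mean fell under the filter, and with no filter the difference was -0.80 ± 0.12 (0.000852).

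The ADAMTS-like genes split. Adamtsl3, a secreted matrix protein gene on chromosome 7 from 89484204 to 89762960, was higher in exp in every library. Its level was 13.8, 16.8, 21.9 and 21.0 FPKM in exp at days 0, 5, 9 and 12, then 13.1, 28.9 and 30.5, and 16.9 at day 20. The ctl line stayed between 5.43 and 6.62. The difference was 1.56 ± 0.15 log2 over all days (limma adjusted p = 1.3e-05). At day 16 it was 1.68 ± 0.31 (0.037), made up of 1.02 for replicate 1 and 2.01 for replicates 2 and 3, and this call was lost without any 1 of 5 libraries (all but exp replicate 1) and with no filter on low values (0.057). Adamtsl4, which binds fibrillin, was lower in exp in 7 of 8 pairs, at 12.7 to 18.6 FPKM (median 14.6) against 15.4 to 21.8 (21.0), a difference of -0.38 ± 0.08 (0.00347). Adamtsl5 was lower in 8 of 8, at 6.93 to 15.5 FPKM (13.5) against 14.8 to 25.1 (16.4), a difference of -0.49 ± 0.12 (0.00956) that was short of the threshold without the day 16 libraries (0.052). Both lines had overlapping ranges for these 2 genes. Adamtsl1 had 0.514 to 1.48 FPKM in exp and 0.345 to 1.09 in ctl, and with no filter it did not pass (0.12 ± 0.13, 0.562).

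Timp3, the inhibitor that stays bound to the matrix and also blocks ADAMTS and ADAM enzymes, varied most among the inhibitors. In exp it had 185, 269.6, 172 and 263 FPKM at days 0, 5, 9 and 12, then 531 in day 16 replicate 1, 239.8 and 259.8 in replicates 2 and 3, and 482 at day 20. In ctl it had 184, 169, 174 and 188, then 188, 287 and 290.3, and 189.8. The 2 day 16 sets therefore differed in opposite directions in the 2 lines: exp minus ctl was 1.49 log2 for replicate 1 and -0.21 for replicates 2 and 3. Over all days the difference was 0.45 ± 0.19 (limma adjusted p = 0.092), and without replicates 2 and 3 it was 0.66 ± 0.21 (0.0416). Its exons share 1733 bases with Syn3, which had 0.157 to 0.323 FPKM. The 2 highest exp values were in the 2 libraries with marker sums of 1155 and 1023 FPKM, and the markers' part in the result was not tested. Timp1, on the X chromosome, had 41.7 to 98.9 FPKM in exp and 59.6 to 95.8 in ctl, with the highest values of both lines in replicates 2 and 3. It was lower in exp in 7 of 8 pairs, by -0.24 ± 0.12 log2 (0.14), and passed with the replicate block (0.0354) and without replicates 2 and 3 (-0.33 ± 0.08, 0.0125). Timp4 did not exceed 0.0360 FPKM.

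Per unit of transcript length, inhibitor mRNA exceeded metalloproteinase mRNA in 7 of 8 exp libraries and in all 8 of ctl. The ratio of summed Timp to summed Mmp FPKM was 0.923 to 2.48 in exp (median 1.75), lowest at day 9 and highest in day 16 replicate 1, and 1.63 to 2.33 in ctl (1.87). At day 16 it was 2.09 ± 0.332 and 2.16 ± 0.269 (SD, n = 3), a difference within the spread of the replicates. Timp2 made up 40.9 to 63.0% of Timp FPKM in exp and 58.0 to 76.0% in ctl.

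**Figure D5:**
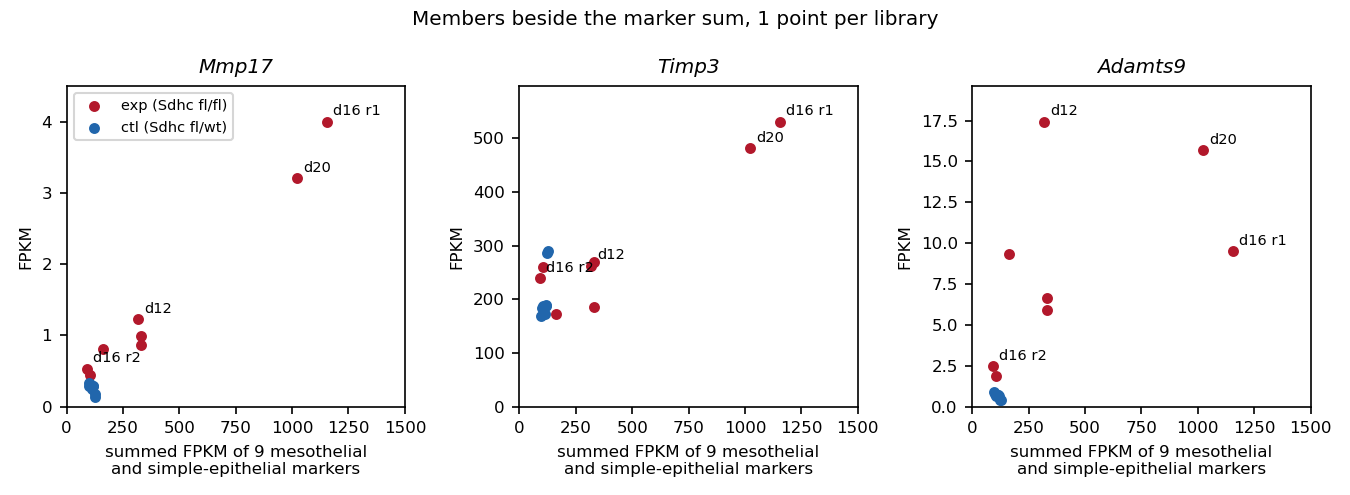
FPKM of Mmp17, Timp3 and Adamts9 against the summed FPKM of 9 mesothelial and simple-epithelial markers, with exp in red, ctl in blue and 1 point per library. The marker sums of 1155 (exp day 16 replicate 1) and 1023 (exp day 20) go with the highest Mmp17 and Timp3 values, whereas Adamts9 is highest at day 12.

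No member passed the test of a slope over the days after doxycycline. Within exp 0 of 23 members passed (4.95% of all genes did), within ctl 0 of 23 (0% of all genes), and in the difference between the slopes 0 of 23 (0.207%). By limma, 7, 0 and 4 members had an unadjusted p under 0.05, as had 2961, 203 and 1388 of all 12559 genes. The median slope of the members in exp was 0.26 log2 per 20 days, beside -0.09 for all genes. Exp calls depended on how day 16 entered, and on which members met the filter. Without day 16 replicates 2 and 3, 27 members were tested, Mmp17 being among those added. With the replicate block Adamts2 (0.92 ± 0.22), Adamts5 (0.70 ± 0.17), Mmp2 (0.74 ± 0.17) and Timp2 (0.64 ± 0.17) passed, at adjusted p from 0.0239 for Mmp2 to 0.0407 for Timp2 (8.25% of all genes were called). Without day 16 replicates 2 and 3 the ones that passed were Timp3 (1.51 ± 0.34), Mmp17 (1.46 ± 0.32), Adamts9 (1.25 ± 0.31) and Mmp2 (0.67 ± 0.17), at adjusted p from 0.0266 for Mmp17 to 0.0452 for Mmp2 (6.48%). Leaving out single days also made calls in exp: Mmp16 (0.88 ± 0.25, adjusted p = 0.0381) and Adamts10 (-0.91 ± 0.19, 0.0112) without day 5, Mmp16 without day 9 (0.64 ± 0.15, 0.0395), and Adamts5 without day 20 (1.20 ± 0.30, 0.0457). Without day 5, 2 of 24 members were called, beside 1381 of all 12562 genes. The counts were 1 of 23 beside 444 of 12564 without day 9, and 1 of 24 beside 577 of 12562 without day 20. Under all of these settings the slope difference between the lines had 0 members past the threshold. For Mmp2 the slope difference was 0.79 ± 0.32 with all libraries (adjusted p = 0.387).

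The plasminogen system, whose protease plasmin activates several proMMPs, was lower in exp where it differed. Of 9 genes tested, 5 were lower and 0 higher over all days, with a median of -0.26 log2, and 3 were lower at day 16; of all genes 16.7% and 3.01% were lower in these fits. Plau, which encodes urokinase, had 9.55 to 15.5 FPKM in exp and 34.6 to 63.9 in ctl (all-days -2.03 ± 0.16 log2, limma adjusted p = 3.04e-06). Plat, the tissue activator, had 13.7 to 20.6 and 27.5 to 34.5 (-0.81 ± 0.07, 3.82e-06). Serpine2, an inhibitor of both activators, had 2.47 to 15.9 and 30.0 to 70.6 (-2.56 ± 0.32, 9.26e-05). Plaur, the urokinase receptor, differed by -0.51 ± 0.13 (0.0112), with overlapping lines. Plasminogen itself (Plg) was listed at 0 in all libraries.

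Of 7 pericellular regulators of matrix proteases tested, 2 were higher and 2 lower in exp over all days, with a median of 0.02 log2 (in this fit, as for the lists that follow, 19.2% of all genes were higher and 16.7% lower). Mrc2, the collagen uptake receptor, was lower at 30.7 to 55.1 FPKM against 57.5 to 86.6 (-0.84 ± 0.09, limma adjusted p = 3.41e-05), as was Cd44 (-1.34 ± 0.17, 0.000112). Pcsk6, a proprotein convertase, was higher (1.14 ± 0.18, 0.000582), as was Spock2 (2.20 ± 0.43, 0.0022), whose exp level was 14.3 FPKM in day 16 replicate 1 and 0.585 and 0.867 in replicates 2 and 3. Of 9 other matrix-processing enzymes 3 were higher and 2 lower (median 0.18). Pcolce2, which enhances removal of the procollagen C-propeptide, was higher at 4.69 to 16.9 FPKM against 0.723 to 1.69 (2.51 ± 0.22, 6.3e-06), Prss23 and Htra1 were also higher (0.70 ± 0.11, 0.000385; 0.86 ± 0.20, 0.00631), and Hyal1, a hyaluronidase, was lower (-0.26 ± 0.05, 0.00177).

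Of 12 cathepsins and cystatins 5 were higher and 2 lower over all days (median 0.12 log2). Ctsk, a lysosomal collagenase, was lower at 1.02 to 2.34 FPKM in exp against 3.53 to 7.01 (-1.14 ± 0.13, limma adjusted p = 4.02e-05). Cst3, which makes cystatin C, an inhibitor of such proteases, was higher at 345 to 528 against 260.2 to 301 FPKM (0.56 ± 0.07, 5.19e-05), as were Ctsc (0.80 ± 0.11, 0.000135) and Ctsz (0.52 ± 0.09, 0.000674). Of 7 ADAM sheddases, membrane-bound relatives of the ADAMTS enzymes, Adam10 was higher (0.43 ± 0.12, 0.0167) and Adam19 lower (-0.72 ± 0.11, 0.000332). The median of these 7 was -0.07.

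The remaining members were low or undetected, and 13 of the 20 never reached 0.1 FPKM. Besides Adamts15, 3 of the 20 were called with no filter on low values, a fit in which 27.6% of all genes were called. Mmp9, gelatinase B, had 0.493 to 0.629 FPKM in 6 ctl libraries, 0.0741 and 0.0699 in ctl day 16 replicates 2 and 3, and 0 to 0.121 in exp (-0.42 ± 0.09 log2, limma adjusted p = 0.00462). Adamts18 had 0.0681 to 0.180 in exp and 0.277 to 0.676 in ctl, with no overlap (-0.28 ± 0.05, 0.00297). Mmp25 had 0.192 to 0.522 and 0.107 to 0.236 (0.18 ± 0.05, 0.0186). Adamts13, Adamts17, Adamts19, Adamtsl2, Mmp1a, Mmp1b, Mmp8, Mmp10, Mmp21 and Mmp27 stayed at or below 0.112 FPKM in every library.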

How the data were processed

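The authors deposited FPKM values per gene, in 1 file for each library. Per the submitters' processing notes reads were aligned with Bowtie2 2.2.3 to mm9; the strandedness of counting, its tool and its gene models were not given in the sources used here, so reads of genes with overlapping exons cannot be told apart. Gene IDs were matched to symbols through a RefSeq gene table (24416 of 24485), and positions are those of GENCODE on mm9. FPKM values were whole multiples of 1 read in 18960 genes, 47 of the 51 members among them, within 0.02 read by the rule of acceptance (largest distance 0.000664), which gave read counts and depths. Intervals cover counting error only.

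Differences were tested with limma 3.58.1 (R 4.3.3) on log2(FPKM + 1). Genes entered with a mean of at least 1 FPKM in the libraries fitted, with trend and robust empirical Bayes, two-sided, and Benjamini-Hochberg adjustment over all genes tested (threshold 0.05). A fold on this scale understates changes of low genes. Slopes are per 20 days. The fits were tested on simulated data.

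All members at 1 FPKM in at least 3 libraries are named, the others by range; of each other list up to 4 genes with the smallest p per comparison were named, together with genes singled out after their values were seen (Plg). Members and lists were chosen with earlier results of these data known. The replicate block was an alternative, since the labels do not say that a number marks a shared batch. Same-numbered day 16 replicates deviated together (r = 0.382, 0.271 and 0.338 for numbers 1, 2 and 3). Exp replicate 3 with ctl replicate 2 (0.397) and exp replicate 2 with ctl replicate 3 (0.206) did so too, so within replicates 2 and 3 the numbers are not set apart, and the blocked fit is given where it changed a call. Other pseudocounts, filters, scalings, left-out libraries and days, and limma voom on recovered reads (chosen after seeing the data) were the alternatives.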

Additional observations from a re-analysis of the deposited data

How the results depend on the processing

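Of the 12 differences called over all days, 10 passed in every alternative that tested them. Mmp16 and Adamtsl5 were short of the threshold without the day 16 libraries, and no direction reversed among the named calls. The number of members called over all days was 12 in 23 tested, beside 4503 of all 12559 genes. With no filter on low values, where more genes were tested, it was 21 of 48, beside 5505 of 19945 genes. At day 16 the 4 calls became 2 with a mean FPKM of at least 5 (Mmp16 and Adamts20 were then not tested), 17 within replicates 2 and 3, 5 with quantile normalization (Timp2 added as lower in exp, -0.51 log2, adjusted p = 0.0475), 5 with no filter (Adamts3 and Mmp3 added, Adamtsl3 lost), and 1 to 5 when 1 library was left out. With the replicate block, which uses the pairing of the numbers, the 4 calls became 7. Calls over all genes moved too, from 765 of 12533 to 493 of 9667 with a mean of at least 5 and 4326 of 12474 within replicates 2 and 3. They were 767 with quantile normalization, 1023 with the block and 733 of 19132 with no filter. When 1 library was left out they ran from 197 (without ctl replicate 3) to 1599 (without exp replicate 1). Slope calls within exp were 0, and became 4 with the replicate block, 4 without day 16 replicates 2 and 3, 2 without day 5 (Mmp16, Adamts10), and 1 each without day 9 (Mmp16), without day 20 (Adamts5), with a pseudocount of 5 FPKM and with quantile normalization (both Mmp16); apart from the construction of each setting, the cause was not tested. The 4 without day 16 replicates 2 and 3 were of 27 members tested, and include Mmp17, which the fit to all libraries did not test. Over all genes the exp slope calls were 622 of 12559, and became 1036 with the block and 814 of 12565 without day 16 replicates 2 and 3. They were 1381 of 12562 without day 5, 444 of 12564 without day 9 and 577 of 12562 without day 20. With a pseudocount of 5 FPKM they were 670 and with quantile normalization 495, both of 12559. The block changed no other member's call than those given with it. Single libraries at 5 of the 6 days, and few reads for members under 1 FPKM, limit the precision.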
